A study of Rattus norvegicus with 6 samples.

Results

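The 9 genes named here as markers of astrocyte metabolism, glutamate uptake, lipid transport and perivascular endfeet were followed in brain capillaries of stroke-prone spontaneously hypertensive rats (SHRSP), a strain that inherits severe hypertension and stroke. They are Aldoc, Glul, Slc1a2, Slc1a3, Apoe, Aqp4, Gja1, Aldh1l1 and Clu, and they were taken as every probe set that the RG_U34A array annotation assigned to 1 of these symbols. This gave 20 of the 8799 probe sets of the array, for 9 of 4736 named genes. Glul, Slc1a2 and Slc1a3 had 4 probe sets each, Aldoc and Apoe 2 each, and the others 1 each. Capillary RNA was measured on 6 arrays: 2 of SHRSP controls, 2 of SHRSP given the ACE inhibitor lisinopril (ACEI, 6 mg/kg per day) and 2 of SHRSP given the angiotensin receptor blocker olmesartan (ARB, 4 mg/kg per day by mouth). All rats were 6 weeks old per the labels, which also name 1% NaCl among what was given without saying whether this was the control treatment or was shared by all groups. No normotensive strain is among the samples used here, and the sources used here do not say how many animals stand behind an array. The p-values below therefore measure the spread between arrays, which may be technical.

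Astrocytes wrap almost the whole surface of brain capillaries with endfeet, and isolated capillaries carry fragments of these. As whole cells, and not only at endfeet, astrocytes clear glutamate with the transporters encoded by Slc1a2 (GLT-1) and Slc1a3 (GLAST) and turn it into glutamine with glutamine synthetase (Glul). They also supply lactate made by glycolysis, in which aldolase C (Aldoc) is the aldolase form typical of brain. The water channel Aqp4 and the gap junction protein connexin 43 (Gja1) are concentrated in endfeet, and Apoe and Clu encode the main apolipoproteins that astrocytes secrete. Because the RNA is of mixed cells, fewer astrocyte fragments and less RNA per fragment cannot be told apart.

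Several arrays stood apart before any gene was considered. For Gapdh the signal at the 3' end divided by that at the 5' end, which is raised where RNA is degraded or copied only in part, was 7.31 on control 2 and 0.933 to 1.59 on the other 5 arrays. For beta-actin it was 3.15 on control 2, 2.05 and 1.65 on the ARB arrays, and 1.04 to 1.35 on control 1 and the ACEI arrays. For hexokinase it was 6.28, then 3.44 and 2.72, then 1.78 to 2.98 in the same order. On the ARB arrays the 10 brightest probe sets carried 11.3% and 12.2% of the signal, against 2.56% to 5.64% elsewhere. The 3' control probe set of beta-actin had an intensity of 2329 on control 2 and of 5257 and 5662 on the ARB arrays, but of 22165 to 25420 on control 1 and the ACEI arrays. That of Gapdh had 7813 on control 2, 7050 and 6370 on the ARB arrays, and 14619 to 18480 on control 1 and the ACEI arrays. Control 1 and ACEI 1 were hybridised on an earlier day, with another chip lot, than the other 4 arrays. The endothelial label held in part: of 18 endothelial markers 12 were measured, and S68135_s_at of Slc2a1, which carries glucose across the blood-brain barrier, lay between 27457 and 66763 on every array. Pecam1, the junction molecule of endothelium, was at 5538 on control 1, 2728 and 5564 on the ACEI arrays, 194 on control 2, and 553 and 317 on the ARB arrays.

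Differences are given as log2 of the intensity plus an offset of 90, with the standard error of a limma model over all 5244 probe sets tested, which were those left after the 40% with the lowest mean were set aside. Of the 20 astrocyte probe sets, 15 were tested, and these stood for 7 of the 9 genes. The single probe sets of Aqp4 and Gja1, 2 of the 4 of Slc1a2 and 1 of the 4 of Slc1a3 were too dim, and for these only the intensities and differences are given. Levels of different probe sets cannot be set against each other, so each is described across arrays only.

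**Figure D1:**
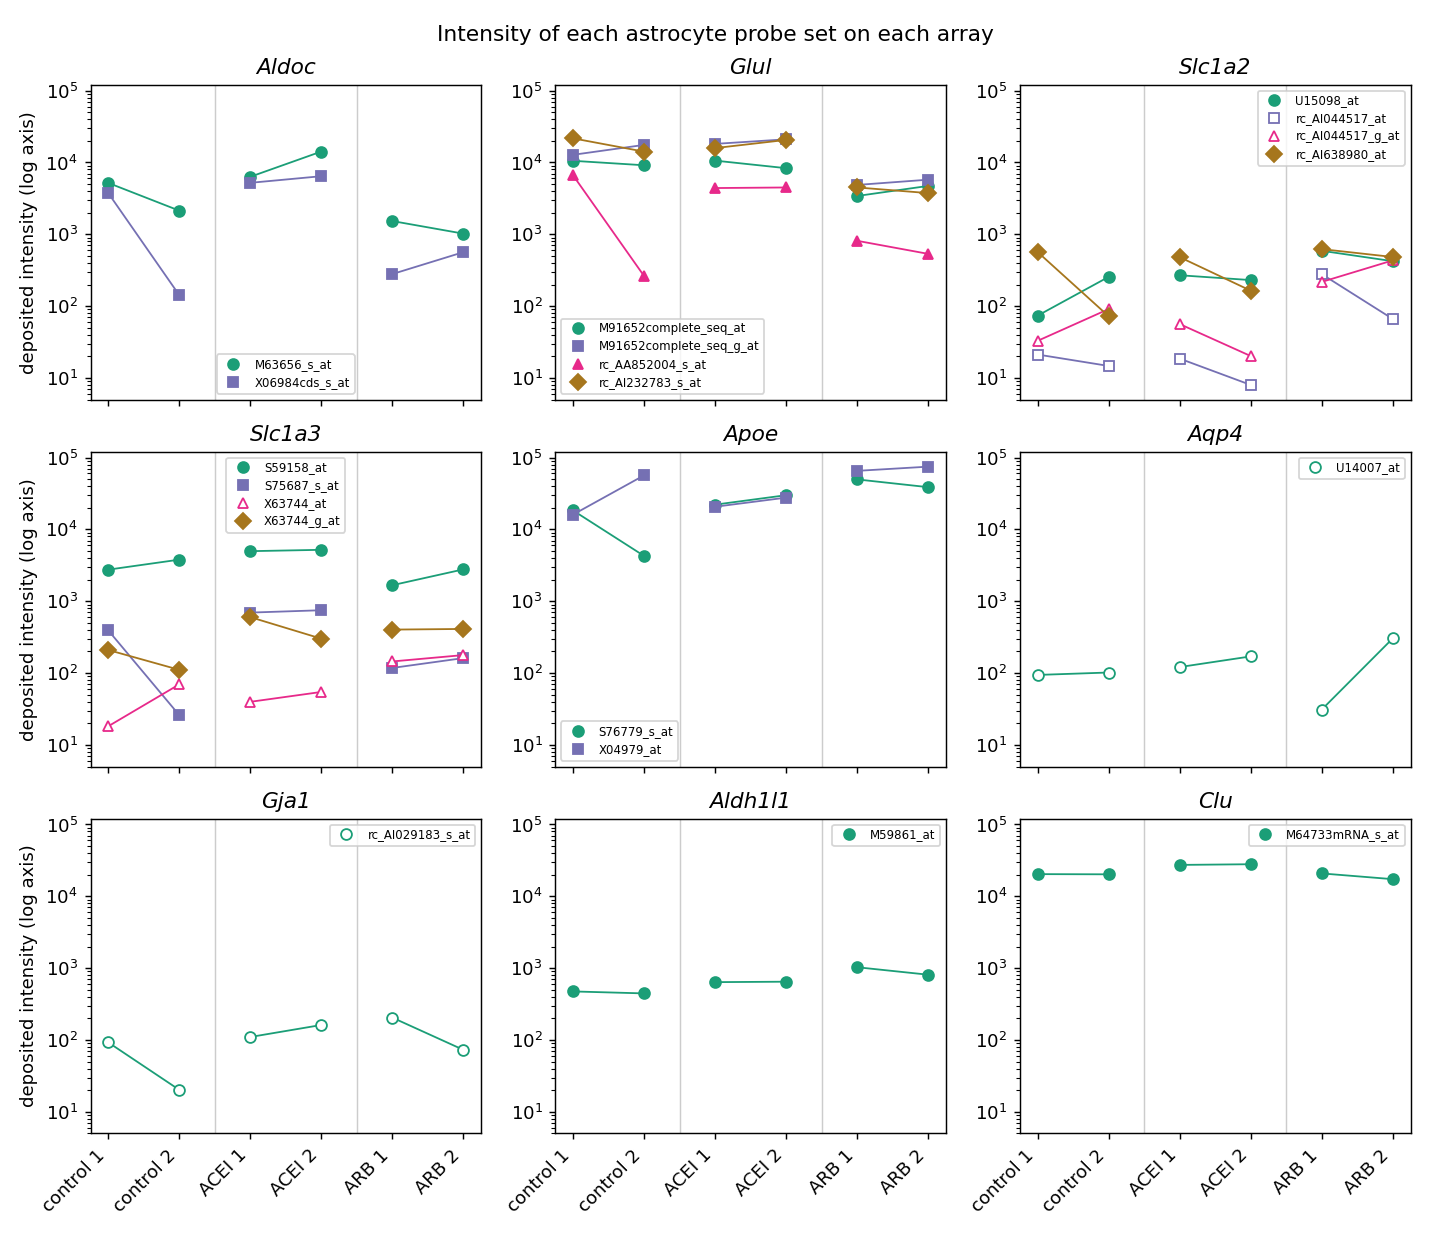
Deposited intensity (log axis) of the 20 astrocyte probe sets on the 6 arrays, 1 panel per gene, with lines joining the 2 arrays of a group and open symbols for probe sets that were not tested. All 4 probe sets of Glul and both of Aldoc lie lower on the ARB than on the ACEI arrays, while both of Apoe lie higher.

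The clearest differences among the astrocyte genes lay between the drugs themselves, in Aldoc and Glul. These genes, of glycolysis and glutamine synthesis, were lower on both olmesartan arrays than on both lisinopril arrays in all 6 of their probe sets. Apoe and Slc1a2 were higher in all 6 of theirs, but ARB minus ACEI was above 0 for 68.6% of all 8740 probe sets. In ARB versus ACEI, 8 of the 15 tested probe sets were lower at an unadjusted p under 0.05 in limma, where 6.71% of all tested probe sets were, and 1 was higher, where 15.6% of all were. The 8 were probe sets of Aldoc, Glul and Slc1a3. Probe sets of 1 gene are repeat readings of that gene on the same arrays, so the 15 are not independent. The arrays of the drugs did not overlap in 9 lower and 5 higher probe sets of the 15, against 25.3% and 37.1% of all. The median of the 15 differences, a description of those that passed the filter, was -1.20, and that of all 5244 was 0.15. With no filter it was -0.084 over all 20 astrocyte probe sets (8 higher) and 0.43 over all 8740, so the size of the median rests on leaving out the 5 dim ones. None of the 15 passed an adjusted p of 0.05, nor did any probe set (0%; 1171 had an unadjusted p under 0.05). Brighter probe sets as a whole were also lower: over the 879 at or above percentile 90 of mean intensity, 8 of which were astrocyte probe sets, the median difference was -0.28. After quantile or cyclic loess normalization the median over all tested probe sets went from 0.15 to -0.05 or -0.01, and that of the 15 to -0.94 or -0.95. The 3' control probe sets of beta-actin and Gapdh were also lower with ARB than with ACEI, and the part of these shifts in the astrocyte values was not tested.

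In ARB versus ACEI the 2 probe sets of Aldoc had the largest differences of the 20. Its probe set M63656_s_at read 5188 and 2133 in controls, 6322 and 14198 with ACEI, and 1529 and 1021 with ARB. The ACEI arrays lay above both controls and the ARB arrays below both. ARB minus ACEI was -2.84 ± 0.61 (7.14-fold lower, n = 2 arrays per group, limma adjusted p = 0.126), ACEI minus control 1.48 ± 0.61 (adjusted p = 0.992) and ARB minus control -1.35 ± 0.61 (adjusted p = 0.296). X06984cds_s_at, the other probe set of Aldoc, read 3739 and 142 on the controls, 5208 and 6439 with ACEI, and 280 and 564 with ARB. Here the ARB arrays lay between the controls, and control 2 minus control 1 was -4.04. ARB minus ACEI was -3.58 ± 1.09 (12.0-fold lower, limma adjusted p = 0.143). This gap exceeded the differences within the ACEI pair (0.30) and the ARB pair (0.82) but not that within the control pair. On the later hybridisation day alone ARB minus ACEI was -3.41 and -3.73 for these probe sets. ACEI minus control was 0.28 and 0.47 on the first day and 2.68 and 4.81 on the later one, which rests on control 2.

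Glul was lower with olmesartan than with lisinopril in each of its 4 probe sets, and lower than in both controls in 3 of them. Both ARB arrays lay below both ACEI arrays in 25.3% of all tested probe sets, and the share below both controls was not counted. rc_AI232783_s_at read 21666 and 14157 on the controls, 15853 and 20594 with ACEI, and 4491 and 3747 with ARB. The control and ACEI arrays overlapped, and the ARB arrays lay apart from both. ARB minus control was -2.07 ± 0.47 (4.20-fold lower, limma adjusted p = 0.199) and ARB minus ACEI -2.11 ± 0.47 (adjusted p = 0.126). M91652complete_seq_g_at read 12774 and 17553, then 18136 and 20991, then 4865 and 5758 in the same order, and M91652complete_seq_at read 10547 and 9143, then 10611 and 8328, then 3414 and 4713. For them ARB minus control was -1.48 ± 0.45 and -1.27 ± 0.46, and ARB minus ACEI -1.86 ± 0.45 and -1.21 ± 0.46. The fourth, rc_AA852004_s_at, read 6646 on control 1 but 264 on control 2, with 4404 and 4486 for ACEI and 812 and 535 for ARB. Its ARB minus ACEI difference of -2.59 ± 1.13 had the sign of the others, but ARB minus control (-1.04 ± 1.13) was 1.09 against control 2 alone and -3.17 against control 1 alone. ACEI minus control was within 1 SE of 0 for the first 3 probe sets (0.04, 0.38 and -0.06), so no lisinopril difference beyond the model error was seen in them.

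When either control array was left out, the spread was estimated from the drug arrays, and the lone control was taken to vary like the others. In that limma fit of ARB versus ACEI 6 of the 15 probe sets passed, all lower, against 2.99% of all tested probe sets called lower. They were both probe sets of Aldoc (adjusted p = 0.0312 and 0.0204), 3 of Glul (0.0392, 0.0245 and 0.0337) and S75687_s_at of Slc1a3 (0.0418). The control arrays add nothing to the 2 means compared here, only to the common estimate of error. Leaving out an ACEI or ARB array instead gave 0 astrocyte calls in this comparison.

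The upstream sequences of Aldoc and Glul are shown because all 6 of their probe sets were lower in ARB versus ACEI with an unadjusted p under 0.05. Apoe and Slc1a2 shared a sign too, but with 1 of their 4 tested probe sets past that threshold, and their sequences are not shown. They are the 250 bases before each start in RefSeq's GRCr8 annotation of the rat genome, where 8 of the 9 genes had an entry and Glul had 2 starts. Capitals mark the GC box letters GGGCGG and the CCAAT box letters CCAAT on either strand (CCGCCC and ATTGG in reverse), 2 common core promoter motifs that share no position in these windows. These motifs were chosen with the results known.

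Aldoc (chr10:63715294-63715543, plus strand): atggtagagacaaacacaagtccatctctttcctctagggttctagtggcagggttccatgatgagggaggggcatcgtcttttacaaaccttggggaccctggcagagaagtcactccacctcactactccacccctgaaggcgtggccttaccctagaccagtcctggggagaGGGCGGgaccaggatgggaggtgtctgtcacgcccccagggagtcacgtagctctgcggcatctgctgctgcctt
Glul, upstream start (chr13:68519250-68519499, plus strand): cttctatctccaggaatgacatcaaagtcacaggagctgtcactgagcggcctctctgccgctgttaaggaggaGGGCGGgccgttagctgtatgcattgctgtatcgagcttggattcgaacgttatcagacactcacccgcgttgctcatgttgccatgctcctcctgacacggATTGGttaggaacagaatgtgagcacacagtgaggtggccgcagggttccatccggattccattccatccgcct
Glul, downstream start (chr13:68575816-68576065, plus strand): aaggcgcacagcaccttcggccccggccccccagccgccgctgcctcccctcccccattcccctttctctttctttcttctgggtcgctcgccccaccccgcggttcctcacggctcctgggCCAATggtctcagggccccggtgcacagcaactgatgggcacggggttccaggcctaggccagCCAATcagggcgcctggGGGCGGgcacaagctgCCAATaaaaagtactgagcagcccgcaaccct

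GGGCGG occurred 1 time in each of these windows and at least 1 time in 30.5% of all 33469 windows of this length. CCAAT, on either strand, occurred 0 times before Aldoc, 1 time before the upstream and 3 times before the downstream start of Glul, and in 34.0% of all windows. These matches describe letters only, and no binding was measured.

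In ARB versus ACEI the 4 probe sets of the glutamate transporter Slc1a2 shared a sign and those of Slc1a3 did not. Slc1a2, the transporter that clears most glutamate in forebrain, was higher on both ARB arrays than on both ACEI arrays in all 4 probe sets, and higher than on both controls in 3. Of all tested probe sets 37.1% lay higher on both ARB than on both ACEI arrays. ARB minus control was above 0 for 69.6% of all 8740, and the share above both controls was not counted. U15098_at read 73.8 and 256 on the controls, 269 and 231 with ACEI, and 590 and 422 with ARB, a difference of 1.31 ± 0.52 against control (limma unadjusted p = 0.0336, adjusted p = 0.264). rc_AI638980_at read 566 and 72.2, then 481 and 164, then 622 and 483. Control 1 lay between the ARB arrays, and ARB minus control was 0.97 ± 0.72. The 2 untested probe sets were dim: rc_AI044517_at read 21.2 or less in controls and with ACEI but 279 and 66.3 with ARB, and rc_AI044517_g_at 20.2 to 91.1 and then 217 and 433. The median of the whole array was also higher with ARB, at 486 and 494 against 245 to 353 elsewhere. With quantile normalization, which gives every array the same distribution, ARB minus control of U15098_at was 0.66.

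Slc1a3, the transporter of Bergmann glia and of astrocytes throughout the brain, split by probe set. S59158_at read 2752 and 3793 on the controls, 4976 and 5197 with ACEI and 1672 and 2776 with ARB. The ACEI arrays were above both controls, the ARB arrays overlapped them, and ARB minus ACEI was -1.20 ± 0.48 (limma unadjusted p = 0.0346, adjusted p = 0.191). The probe set S75687_s_at read 392 and 25.9, then 695 and 749, then 118 and 162, with ACEI minus control at 1.78 ± 0.66 and ARB minus ACEI at -1.83 ± 0.66. X63744_g_at read 209 and 111 on the controls and 600, 301, 403 and 411 on the treated arrays. It was higher on all 4 treated arrays, by 1.05 ± 0.43 for both drugs together (unadjusted p = 0.0388, adjusted p = 0.863), and the drugs overlapped (ARB minus ACEI -0.06 ± 0.50). X63744_at, which is dim and was not tested, read 18.2 and 69.7, then 39.8 and 54.6, then 145 and 178. Thus S59158_at and S75687_s_at were lower with olmesartan than with lisinopril, X63744_at was higher and X63744_g_at overlapped.

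**Figure D2:**
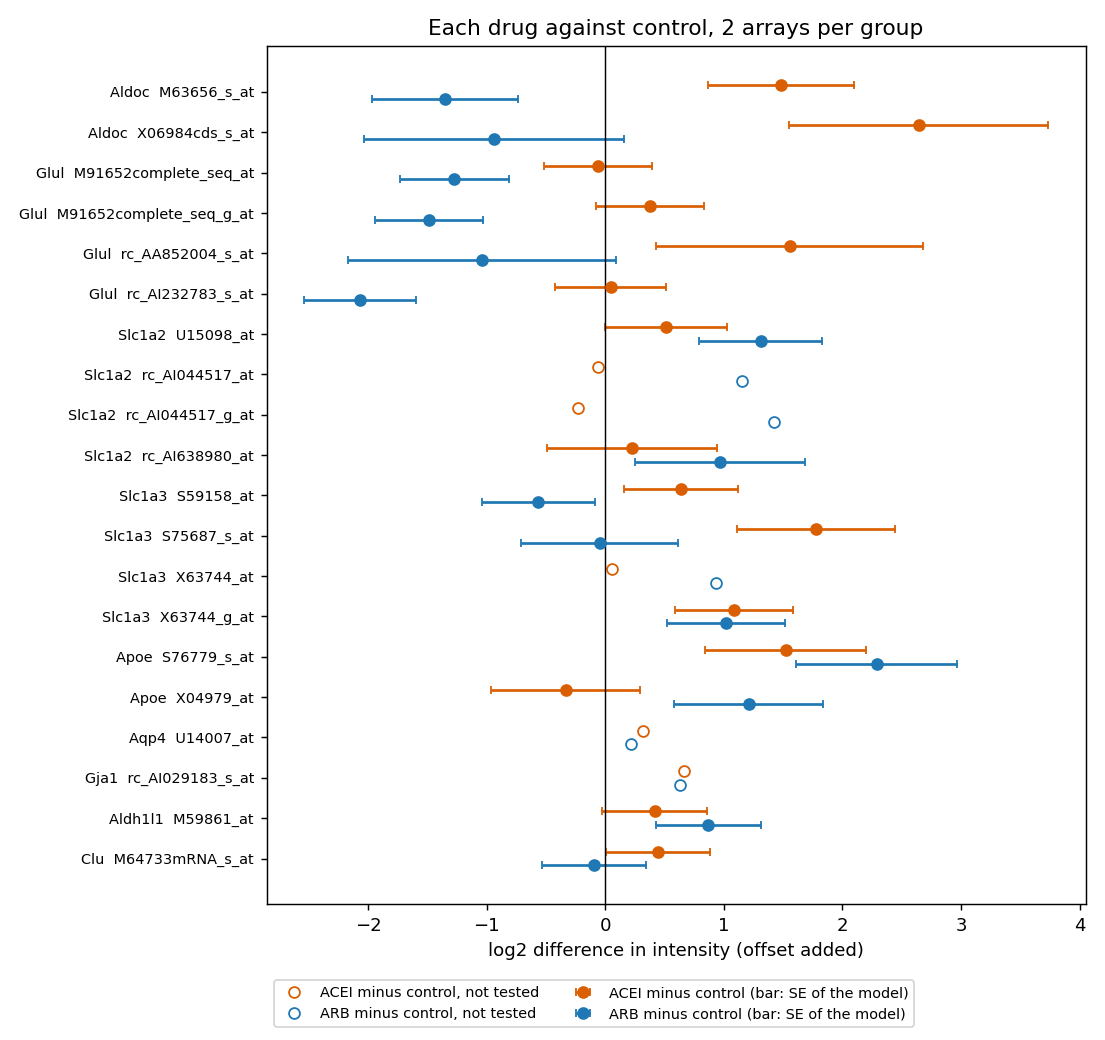
Log2 difference of each drug from control for the 20 astrocyte probe sets (points, with the SE of the limma model as bars; open points were not tested). For Glul the ARB points run from -2.07 to -1.04, and for Apoe the ACEI points are 1.52 and -0.33.

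Apoe, the lipid carrier that astrocytes secrete, was higher on the ARB arrays than on every other array, by both of its probe sets. How many of all probe sets had this pattern was not counted. S76779_s_at read 18367 and 4277 on the controls, 22093 and 29911 with ACEI and 49621 and 38703 with ARB, so that all 4 treated arrays lay above both controls. Its difference for both drugs together (the mean of ACEI and ARB, called RAS blockade here) was 1.91 ± 0.59 (3.75-fold higher, limma unadjusted p = 0.0110, adjusted p = 0.863), and it was 0.87 without control 2 and 2.95 without control 1. X04979_at read 16044 and 56467 on the controls, 20654 and 27666 with ACEI, and 65282 and 74677 with ARB. By this probe set control 2 lay close to the ARB arrays, the difference for both drugs was 0.44 ± 0.54, and ACEI minus control was -0.33 ± 0.63, against 1.52 ± 0.68 by the other. The probe sets gave opposite signs for lisinopril only where control 2 was used. On the first hybridisation day ACEI minus control was 0.27 for S76779_s_at and 0.36 for X04979_at. On the later day, which rests on control 2, it was 2.78 and -1.03. Without control 2 it was 0.48 and 0.57. Both probe sets gave a positive ARB minus control, 2.29 ± 0.68 and 1.21 ± 0.63 (limma adjusted p = 0.207 and 0.346), and a positive ARB minus ACEI, 0.77 ± 0.68 and 1.54 ± 0.63. Their Pearson correlation over the 6 arrays was 0.08, against 0.45 to 0.92 among the 4 probe sets of Glul (descriptive values over arrays of 3 groups).

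The genes Cst3 and Ttr, set beside Apoe after their values were seen, were high on the same arrays as X04979_at. Cst3, the protease inhibitor cystatin C, read 10820 and 41225 on the controls, 15636 and 16036 with ACEI, and 141237 and 181866 with ARB. Ttr, transthyretin of the choroid plexus, read 30927 and 92148, then 38252 and 34632, then 202386 and 201474. The summed intensity of the 5 choroid plexus markers measured, of 9 listed, was 53405 and 135108 on the controls, 56553 to 79943 with ACEI and 257325 to 259374 with ARB, and none was at 0. Ttr and Enpp2 made up most of that sum. The other 3 markers were lower on control 2 than on control 1 (Kl 240 against 3295, Foxj1 119 against 416, Htr2c 298 against 772). In ARB versus ACEI Ttr was at 2.47, Enpp2 at 1.07, Foxj1 at 0.95 and Htr2c at 0.67, and Kl was at -1.39. Sparc, another secreted protein, did not share the pattern, at 17458 and 11065 on the controls, 16423 and 14573 with ACEI, and 9019 and 10196 with ARB. The part of RNA from such tissue in the Apoe values was not tested.

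Clu, which encodes the chaperone lipoprotein clusterin, was steady between arrays of a group. It read 20362 and 20237 on the controls, 27361 and 27961 with ACEI, and 20827 and 17328 with ARB. The ACEI arrays lay above the controls by 0.44 ± 0.44, and ARB minus control was -0.10 ± 0.44 (limma unadjusted p = 0.339 and 0.833). After quantile and cyclic loess normalization of Clu M64733mRNA_s_at, ACEI minus control was 0.82 and 0.70, and ARB minus control 0.10 and 0.37. Aldh1l1, the folate enzyme often used to mark astrocytes, read 474 and 445 on the controls, 639 and 648 with ACEI, and 1030 and 811 with ARB. It was higher on all 4 treated arrays, at 0.42 ± 0.44 with ACEI and 0.87 ± 0.44 with ARB (limma unadjusted p = 0.0816 for the latter). With quantile normalization the ARB difference of Aldh1l1 was 0.43.

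The endfoot genes proper were at the low end of the array. Aqp4 read 94.2 and 102 on the controls, 121 and 171 with ACEI, and 31.0 and 304 with ARB, so that its ARB arrays lay on either side of all others. Gja1 read 92.5 and 20.2, then 110 and 162, then 205 and 72.9. The mean intensity of Aqp4 stood at percentile 24.3 and that of Gja1 at percentile 19.7 of all probe sets. At this brightness neither a change nor its absence can be read from 2 arrays per group.

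The probe sets of some genes disagreed on control 2. Control 2 minus control 1 was -4.25 for rc_AA852004_s_at of Glul but -0.20, 0.46 and -0.61 for its other 3. For Aldoc it was -4.04 and -1.25, for Apoe -2.08 and 1.81, for Slc1a2 between -2.02 and 1.08, and for Slc1a3 between -2.06 and 0.56. The probe sets of Slc1a3 differed in ARB versus ACEI too, which uses no control array (-1.20, -1.83, 0.87 and -0.06). Over all tested probe sets the median of control 2 minus control 1 was 0.00. ACEI 2 minus ACEI 1 ran from -1.17 (rc_AI638980_at of Slc1a2) to 1.16 (M63656_s_at of Aldoc) over the 20 probe sets. ARB 2 minus ARB 1 ran from -1.24 (rc_AI044517_at of Slc1a2) to 1.70 (Aqp4), both in probe sets too dim to test. Control 2 was also the array with the raised Gapdh ratio of 7.31, and the part of RNA quality in these gaps was not tested.

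**Figure D3:**
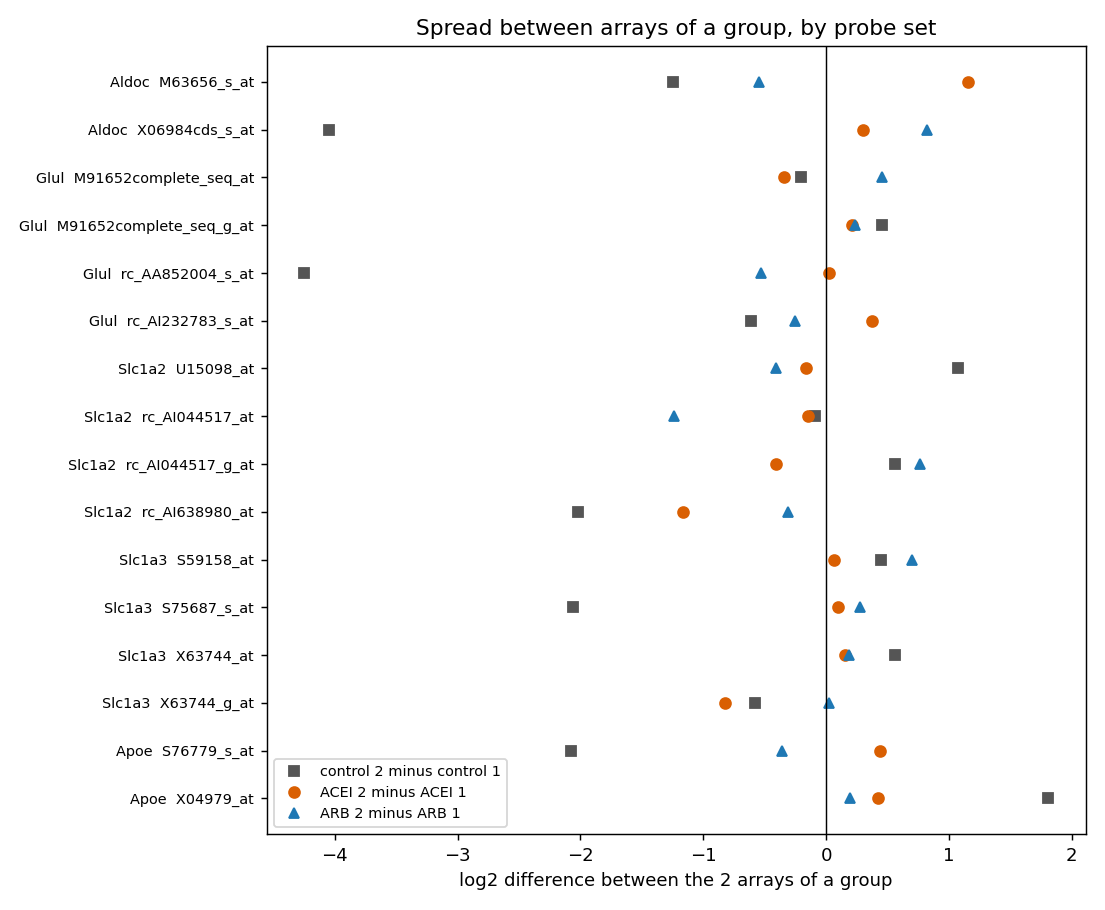
Log2 difference between the 2 arrays of each group for the probe sets of Aldoc, Glul, Slc1a2, Slc1a3 and Apoe. The control pair (squares) spans -4.25 to 1.81, and the ACEI (circles) and ARB (triangles) pairs lie between -1.24 and 1.16.

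Against the controls few astrocyte probe sets stood out. For RAS blockade 2 of the 15 tested were higher (Apoe S76779_s_at and Slc1a3 X63744_g_at) and 1 lower (Glul rc_AI232783_s_at, -1.01 ± 0.41) at an unadjusted p under 0.05, where 3.05% and 2.02% of all were. Of the 15, 3 lay above both controls on every treated array (those 2 and Aldh1l1) and 0 lay below, against 4.63% and 3.72% of all. The median was 0.44 over these 15 and 0.13 over all tested, and 12 of the 15 differences were positive (10 after quantile normalization). With ACEI 3 were higher (both of Aldoc and S75687_s_at of Slc1a3) and 0 lower, where 1.20% and 1.39% of all were. The ACEI median was 0.51, against -0.04 over all, with 13 of 15 positive (15 after quantile and 14 after cyclic loess normalization). With ARB 2 were higher (Apoe S76779_s_at and Slc1a2 U15098_at) and 3 lower (all of Glul), where 12.6% and 4.69% of all were, and the median was -0.10 against 0.18. With no filter the ARB median was 0.42 over all 20 astrocyte probe sets and 0.43 over all 8740, so its sign depends on the dim probe sets. None passed an adjusted p of 0.05 in limma in any of these comparisons, nor did any probe set of the array (0%), of which 266, 136 and 905 had an unadjusted p under 0.05 for RAS blockade, ACEI and ARB. The ACEI and ARB comparisons share the control arrays.

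These comparisons with control turned on which control array was used. Without control 1, 4 probe sets passed as higher with ACEI in limma: Aldoc X06984cds_s_at at 4.66 (adjusted p = 0.0156), Glul rc_AA852004_s_at at 3.68 (0.0187), Slc1a3 S75687_s_at at 2.81 (0.0231) and Apoe S76779_s_at at 2.56 (0.0366), where 4.69% of all passed as higher. They are the 4 with the most negative control 2 minus control 1. In the same fit Apoe S76779_s_at passed for RAS blockade at 2.95 (adjusted p = 0.0385), with 1.05% of all higher, and without control 2 the same difference was 0.87. Without control 2, the only astrocyte probe set that passed in a comparison with control was Glul rc_AA852004_s_at, lower with ARB at -3.17 (adjusted p = 0.0477), with 0.477% of all lower. The RAS blockade median was then -0.16, and the ARB median without control 1 was 0.77.

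Neighbouring pathways were read from lists, with the probe set of highest mean for each gene. Their counts stand beside 3.05% higher and 2.02% lower for RAS blockade, and 15.6% higher and 6.71% lower in ARB versus ACEI, of all probe sets tested at an unadjusted p under 0.05. Of 14 genes of glutamate handling 8 were measured and 5 tested, with a median RAS blockade difference of -0.32. Slc1a1, the neuronal and epithelial glutamate transporter, was at 2232 and 4270 on the controls and at 902 to 1490 on the treated arrays (-1.34 ± 0.45, limma unadjusted p = 0.0158, adjusted p = 0.863) and was the only 1 of the 5 with an unadjusted p under 0.05. The other probe sets of Slc1a1 were at -0.43 (AF038571_s_at) and 0.62 (L35558_s_at). Gad1, which makes GABA from glutamate, was at 0.94 ± 0.42, and Glud1, which breaks glutamate down, at 0.77 ± 0.47. Of 20 genes of apolipoproteins and lipid transport 8 were tested, with a median of 0.40, and 0 were past that threshold for RAS blockade, with Apob at 0.75, Lpl at -0.73 and Lcat at 0.43. In ARB versus ACEI 2 were higher and 1 lower: Apob at 2.10, Apoc3 at 1.28 and Apod, an astrocyte and oligodendrocyte lipocalin, at -1.92. Of 12 endfoot anchoring and channel genes 4 were tested, with 0 past the threshold for RAS blockade, and Kcnj10, the endfoot potassium channel, was too dim. Slc16a1, a lactate transporter on this list and not itself an anchor or channel, was at 2.03 ± 0.72 with ACEI and at -1.66 ± 0.72 in ARB versus ACEI. Which cells its RNA came from was not tested. The other tested genes of the list were at 0.10 (Ezr), -0.08 (Agrn) and 0.56 (Utrn) in ARB versus ACEI. Among 10 tested connexins and aquaporins 4 were higher and 0 lower in ARB versus ACEI, including Aqp3 at 1.64 and Gja5, an arterial connexin, at 1.57. Of 8 aldolases and aldehyde dehydrogenases 1 was higher and 1 lower in the same comparison. The higher was Aldh5a1, of GABA breakdown, at 1.74. The lower was Aldoa, the muscle form of aldolase, at -4.12 ± 1.14, which read 7447 and 374 on the controls, 8307 and 6833 with ACEI, and 681 and 160 with ARB. Like X06984cds_s_at of Aldoc, it was high on control 1 and the ACEI arrays and low on the other 3. None of these list genes passed an adjusted p of 0.05.

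Other astrocyte genes differed in sign among themselves. Of 29 listed 18 were tested, and with ACEI 15 of the 18 differences were positive (median 0.32), with 2 past an unadjusted p of 0.05, both higher (1.20% of all). In ARB versus ACEI the median was -0.81, against 0.15 over all tested, with 4 lower and 1 higher at that threshold (6.71% and 15.6% of all), the higher one being Cst3 at 3.33 ± 0.64. Plpp3, a lipid phosphatase, was at 1.26 and the growth factor receptor Fgfr2 at 1.19 for RAS blockade, and neither was past the threshold. Gfap, the classical astrocyte filament, had no named probe set here.

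The summed markers of some other cell types stood apart between groups, and those of endothelium and blood overlapped. The summed intensity of 8 oligodendrocyte markers was 16539 and 11104 on the controls, 21848 to 23113 with ACEI and 9409 to 9581 with ARB, the same order of groups as M63656_s_at of Aldoc. In ARB versus ACEI the median of the 7 tested was -0.68. Of these, 3 were lower and 0 higher at a limma unadjusted p under 0.05 (6.71% and 15.6% of all). Mbp, of myelin, had the largest difference at -3.51, and read 5492 and 234 on the controls. For 9 microglia and macrophage markers the sums were 30813 to 38692, 19803 to 41465, and 13418 to 13691. For 12 neuronal markers they were 5972 to 10724, 12014 to 14103, and 13226 to 16948. For 12 endothelial markers they were 74756 to 151013, 76458 to 82793, and 65950 to 76772, and 11 pericyte and smooth muscle markers had 37066 to 48606, 21769 to 23225, and 25245 to 27806. Slc2a1 and Slco1a4 made up most of the endothelial sum. Gene by gene, the median of the 12 endothelial markers was 0.78 with ACEI and -0.97 in ARB versus ACEI, where 2 were higher. The latter median was -1.24 for microglia and macrophage and -0.57 for blood cell markers. It was 0.31 for pericyte and smooth muscle, 0.22 for neuronal and 0.95 for choroid plexus markers. The 7 blood cell markers had 58538 to 173206, 51042 to 73173, and 54614 to 63885. No measured marker in these lists was at 0 on any array. How far the makeup of the capillary preparation enters the astrocyte values was not tested.

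**Figure D4:**
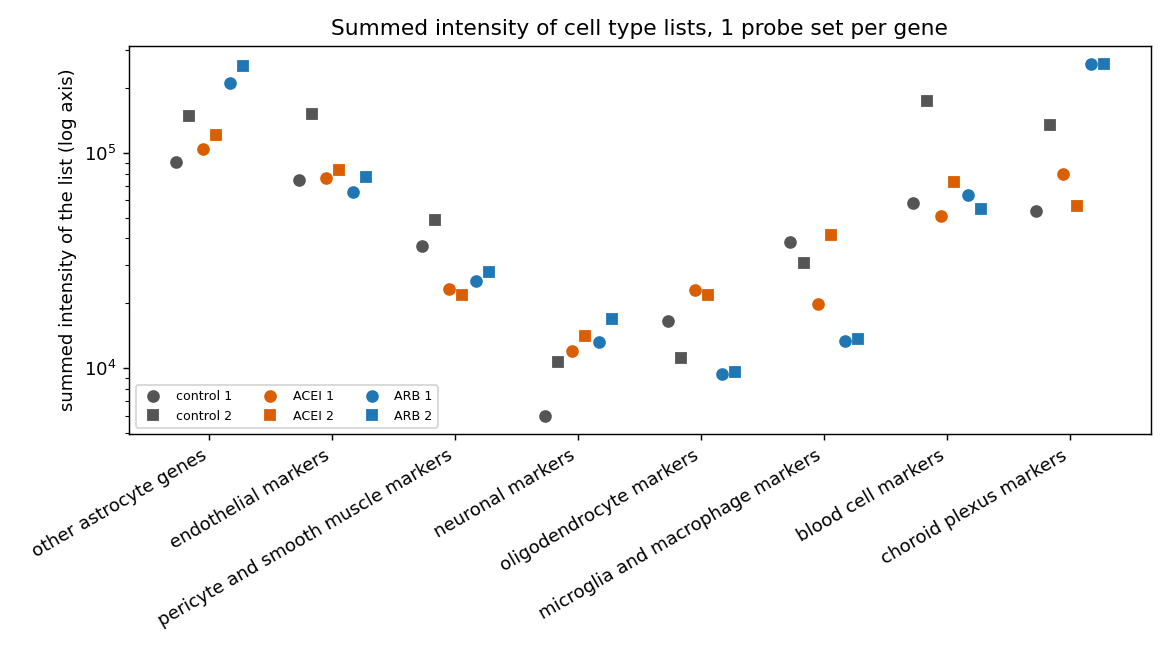
Summed deposited intensity (log axis) of each cell type list on the 6 arrays, with 1 probe set per measured gene, the one of highest mean. Oligodendrocyte and microglia sums are lowest on the ARB arrays, and the choroid plexus sum is highest there, at 257325 and 259374.

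The mean of the centred log2 values of the 20 probe sets was 0.06 and -0.60 on the controls, 0.36 and 0.41 with ACEI, and -0.12 and -0.11 with ARB. The 5 other genes whose values followed this profile most closely over the 6 arrays were Slc27a1, a fatty acid transporter (Pearson r = 0.995), Slc16a1, the lactate and ketone transporter MCT1 (0.995), Pik3c3, a lipid kinase (0.986), Id3, an inhibitor of DNA binding (0.985), and Oat, which joins ornithine and glutamate metabolism (0.983). Slc16a1 read 4255 and 747 on the controls, 7636 and 7724 with ACEI, and 2200 and 2562 with ARB. For each gene only the probe set of highest r was kept. A brighter one of Id3, rc_AI171268_at, read 9714 and 11235 on the controls, 8658 and 14555 with ACEI, and 6971 and 6150 with ARB. Unlike the profile, that probe set was higher on control 2 than on control 1. The astrocyte probe sets themselves were not of 1 pattern: their own r to the profile ran from 0.98 for S75687_s_at of Slc1a3 to -0.64 for X04979_at of Apoe. With 6 arrays in 3 groups and 5244 probe sets searched, such values are descriptions only.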

How the data were processed

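The deposited values were 1 linear intensity per probe set and array of 6 Affymetrix RG_U34A arrays, with the chip type taken from headers of the scanner runs. How the authors computed these intensities and whether background was subtracted are not given in the sources used here. Each array's trimmed mean (2% at either end) lay between 997.7 and 1002, so the arrays had been scaled alike. The 59 control probe sets were set aside, which left 8740. Probe sets were named from the array's annotation: 7018 had 1 symbol, 308 several (not named) and 1473 none. The 20 astrocyte probe sets and all gene lists were chosen with earlier results of these data known.

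Log2 of intensity plus 90 (the median of values above 0, 358.3, divided by 4) was fitted with 1 mean per group in limma 3.58.1 (R 4.3.3), two-sided, after leaving out the 40% with the lowest mean log2 value. P-values were adjusted by Benjamini-Hochberg over all 5244 probe sets. The moderated test had 3 residual and 5.49 prior degrees of freedom. The 2 arrays per group limit the precision. Named genes were every astrocyte probe set, up to 3 per list with the largest RAS blockade difference, and the 5 genes most like the astrocyte mean; genes of a list given for ARB versus ACEI, Kcnj10 and markers such as Pecam1 and Slc2a1 were added after their values were seen. The test was tried on simulated data. Alternatives were other offsets, filters and normalizations, blocks of replicate number or hybridisation day, and leaving out each array. Unnumbered titles were read as replicate 1. Python 3.11.15, pandas 2.3.3 and matplotlib 3.10.9 made tables and figures.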

Additional observations from a re-analysis of the deposited data

Results flagged for a closer look

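For 2 astrocyte probe sets both lisinopril arrays lay above both controls and both olmesartan arrays lay below them. Both ARB arrays lay below both ACEI arrays in 25.3% of all tested probe sets. The share of those with both controls in between was not counted, so these 2 cannot be set against it. The 2 were M63656_s_at of Aldoc, with an ARB minus ACEI difference of -2.84 (limma adjusted p = 0.126), and M91652complete_seq_g_at of Glul, at -1.86 (adjusted p = 0.128). The difference between the drugs was tested directly in both cases and did not pass 0.05 with all 6 arrays. The other probe set of Aldoc and the other 3 of Glul had the same sign in that comparison, but their control arrays overlapped with those of 1 drug or both.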

How the results depend on the processing

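With 2 arrays per group and few residual degrees of freedom, adjusted p-values rest largely on the spread shared across probe sets, and dim probe sets near the offset carry little information. Whether the arrays are separate animals or pools is not known, and signal over background could not be judged, since no detection calls were used. Over the 80 differences of the 20 astrocyte probe sets, 1084 alternative values were computed, of which 1010 kept their sign and side of the threshold, 56 reversed and 18, all with a control array left out, passed an adjusted p of 0.05. Some of these values could not reverse. No filter (80 values), the filter of 60% (44) and the replicate block (80) leave the difference itself unchanged. So does leaving out an array of a group that is not compared. ARB minus ACEI stayed below 0 for all 6 probe sets of Aldoc and Glul under every alternative. Their ARB arrays lay below their ACEI arrays, so only the normalizations and the block of hybridisation day could have turned this sign.

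The count of probe sets called over the whole array, 0 in each comparison, was 3, 3, 4 and 4 for RAS blockade, ACEI and ARB versus control and ARB versus ACEI with an offset equal to the median. It was 1 for RAS blockade with quantile and 1 with cyclic loess normalization. Leaving out each array in turn gave 0 to 60, 0 to 261, 0 to 46 and 0 to 305 calls in that order of comparisons, the highest counts without a control array. With the replicate number as a block it was 3, 2, 4 and 1, with no astrocyte probe set called. The numbers did not pair the arrays: the correlation of deviations was 0.045 between control and ACEI, -0.015 between control and ARB, and -0.004 between ACEI and ARB. The median over astrocyte probe sets was -0.084 for ARB minus ACEI with no filter, where it took in all 20, and -0.94 for ARB minus control with the lowest 60% left out, where it took in 11. With 1 array left out it ran from -0.16 to 0.68 for RAS blockade and from -0.34 to 0.77 for ARB minus control.

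Reversals of single probe sets were as follows, and their cause was not tested. With an offset of 1, ARB minus control was 0.44 for Slc1a3 S75687_s_at and -0.0027 for Aqp4 U14007_at. With an offset equal to the median, ARB minus ACEI was 0.012 for Aqp4 U14007_at. With quantile normalization, RAS blockade minus control was -0.0085 for Aldoc M63656_s_at, -0.074 for Glul rc_AA852004_s_at and -0.011 for Aqp4 U14007_at, ACEI minus control was 0.034 for Glul M91652complete_seq_at and 0.10 for Apoe X04979_at and ARB minus control was 0.10 for Clu M64733mRNA_s_at and -0.33 for Aqp4 U14007_at. With cyclic loess normalization, RAS blockade minus control was -0.065 for Aqp4 U14007_at, ACEI minus control was 0.057 for Glul M91652complete_seq_at and ARB minus control was 0.37 for Clu M64733mRNA_s_at, -0.047 for Gja1 rc_AI029183_s_at and -0.48 for Aqp4 U14007_at. With the hybridisation day as a block, RAS blockade minus control was -0.026 for Slc1a3 S59158_at, ARB minus control was 0.017 for Glul rc_AA852004_s_at and 0.44 for Slc1a3 S75687_s_at and ARB minus ACEI was 0.064 for Gja1 rc_AI029183_s_at and 0.28 for Slc1a3 X63744_g_at. With 1 array left out in turn, RAS blockade minus control ran from -0.19 to 0.26 for Slc1a3 S59158_at, -0.47 to 1.34 for Apoe X04979_at, -0.56 to 0.69 for Aldoc M63656_s_at, -1.87 to 2.38 for Glul rc_AA852004_s_at, -0.41 to 1.60 for Slc1a2 rc_AI638980_at, -0.16 to 1.89 for Slc1a3 S75687_s_at, -1.17 to 2.87 for Aldoc X06984cds_s_at and -0.16 to 0.69 for Aqp4 U14007_at. ACEI minus control ran from -0.24 to 0.11 for Glul M91652complete_seq_at, -0.027 to 1.05 for Slc1a2 U15098_at, -0.22 to 0.34 for Slc1a3 X63744_at, -0.57 to 3.68 for Glul rc_AA852004_s_at, -0.51 to 0.047 for Slc1a2 rc_AI044517_g_at, -0.26 to 0.35 for Glul rc_AI232783_s_at, -0.78 to 1.23 for Slc1a2 rc_AI638980_at, -1.24 to 0.57 for Apoe X04979_at and -0.14 to 0.0093 for Slc1a2 rc_AI044517_at. ARB minus control ran from -3.17 to 1.09 for Glul rc_AA852004_s_at, -1.08 to 0.98 for Slc1a3 S75687_s_at, -2.96 to 1.08 for Aldoc X06984cds_s_at, -0.039 to 1.98 for Slc1a2 rc_AI638980_at, -0.23 to 0.037 for Clu M64733mRNA_s_at and -0.64 to 1.07 for Aqp4 U14007_at. ARB minus ACEI ran from -0.47 to 0.35 for Slc1a3 X63744_g_at, -0.46 to 0.39 for Gja1 rc_AI029183_s_at and -0.96 to 0.75 for Aqp4 U14007_at.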
